A study of Mus musculus with 4 samples.

Results

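Complement is the cascade of plasma proteins that tags microbes and dying cells for uptake and releases small peptides that attract leukocytes. C1q, built of A, B and C chains and made largely by macrophages, binds antibody complexes and starts the classical route; factor B and properdin (genes Cfb and Cfp) serve the alternative route, which amplifies the cleavage of C3. Macrophages and neutrophils sense the released peptides C3a and C5a through receptors encoded by C3ar1 and C5ar1. These 8 genes, C1qa, C1qb, C1qc, C3, C3ar1, C5ar1, Cfb and Cfp, were followed here, and all probe sets that the platform annotation gives to one of them alone were taken. That yielded 13 probe sets of 7 genes among 45037 probe sets without the maker's controls, and among 18193 genes in all. C3 had no named probe set and was not analysed here. C1qa, C1qc and Cfb had 1 probe set each, and the other 4 genes had several.

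Transcript levels came from 4 arrays of mouse bone marrow cells grown with macrophage colony-stimulating factor (M-CSF, 1.5 µg/ml), which drives marrow progenitors towards macrophages. The space flight group (2 arrays) had been cultured on a shuttle, and the ground control group (2 arrays) in parallel hardware on Earth at the same 37 °C. Marrow of 21 C57BL/6 mice older than 8 weeks, with no genetic alteration named, was pooled for both groups. All cultures were fed on culture day 6 and lysed on culture day 15, flight day 14, and each array held RNA of 2 pooled culture barrels. The replicates were thus separate culture pools of 1 marrow pool, so that p-values measure how culture pools and their arrays varied and say nothing of variation among animals. RNA integrity was 3 for all 4 pools by the labels. Levels below are deposited intensities or their quantile normalized log2(intensity + 16), and each difference is that of the group means on the log2 scale, space flight minus ground control, which understates the change of dim genes. Genes whose mean over the arrays reached 6.40, the median of all probe sets, are called measured.

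The 3' to 5' signal ratio of the Gapdh control, a measure of RNA integrity, came to 4.09 for space flight replicate 1 and 15.2 for replicate 2, against 4.13 and 3.33 for the ground control replicates. The Actb ratio was 3.08 and 4.91 in space flight, against 2.30 and 2.84 in ground control. Space flight array 2 thus stood apart, and results are given without it below. Replicates differed with an SD across genes of 0.70 in space flight, against 0.47 in ground control.

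Upstream sequence was available from RefSeq (GRCm38.p6) for 5 of the 7 genes with probe sets, in the minus strand orientation for each. The 250 bases before the start site are shown for C1qb, C1qc and C3ar1. C1qb and C1qc are neighbouring genes that, by the brightest probe set of each, stood on opposite sides of the dim limit. The C3ar1 probe sets all gave the same order of groups. The windows are chr4:136886201-136886450 for C1qb, chr4:136892915-136893164 for C1qc and chr6:122856158-122856407 for C3ar1, all on the minus strand. In the RefSeq gene table of the same assembly, C1qb, C1qc and C1qa lie next to each other in this order on chromosome 4. Capitals mark each match, on either strand, to GAGGAA, the core bound by the myeloid factor PU.1 (gene Spi1), or to TGCTGA, the core of Maf recognition elements.
C1qb: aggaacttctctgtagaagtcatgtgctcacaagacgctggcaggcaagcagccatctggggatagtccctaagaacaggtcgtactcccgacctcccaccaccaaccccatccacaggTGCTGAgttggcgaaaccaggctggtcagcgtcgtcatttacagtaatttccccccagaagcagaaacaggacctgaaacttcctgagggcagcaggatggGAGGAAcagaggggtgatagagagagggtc
C1qc: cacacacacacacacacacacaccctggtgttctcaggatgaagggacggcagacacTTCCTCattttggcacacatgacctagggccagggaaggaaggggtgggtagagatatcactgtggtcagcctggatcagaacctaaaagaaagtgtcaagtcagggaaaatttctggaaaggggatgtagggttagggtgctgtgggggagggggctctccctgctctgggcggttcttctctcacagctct
C3ar1: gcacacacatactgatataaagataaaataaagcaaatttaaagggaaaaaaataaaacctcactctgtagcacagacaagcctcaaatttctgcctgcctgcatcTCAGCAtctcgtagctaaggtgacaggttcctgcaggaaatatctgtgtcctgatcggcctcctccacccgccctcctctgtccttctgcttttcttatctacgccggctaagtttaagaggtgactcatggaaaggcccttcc
The C1qb window held GAGGAA on its own strand, 30 to 25 bases before the start site, and TGCTGA 131 to 126 bases before it. The C1qc window held GAGGAA on the opposite strand, at 193 to 188 bases. The C3ar1 window held TGCTGA on the opposite strand, at 144 to 139 bases. No match overlapped another. Of 32851 promoter windows of this length, 23.3% held GAGGAA, 16.1% held TGCTGA and 3.68% held both, so a match is common and describes the letters alone.

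C3ar1, the receptor for C3a, was the brightest of the 7 genes and had lower signal in the flown cultures on each of its 3 probe sets. The differences were −0.92, −1.44 and −1.52, that is 1.89-fold, 2.72-fold and 2.86-fold higher in ground control. C1qb, the B chain of C1q, had a difference of 1.42 on its brightest probe set, 2.67-fold, but −0.73 on another. C1qa pointed the same way as the brightest C1qb probe set at 1.48, from signals close to the bottom of the scale. None of the 4 measured members, C1qb, C3ar1, C5ar1 and Cfp, passed limma's test at an adjusted p under 0.05, which 0.0628% of the 11141 measured genes did (0.0449% higher and 0.018% lower). At an unadjusted p under 0.05 there were 2 of the 4, C1qb and C3ar1, where 14.2% of measured genes were (6.88% higher and 7.32% lower). In all 4 the groups did not overlap, with space flight above for C1qb and C5ar1 and below for C3ar1 and Cfp, where 45.5% of measured genes did not overlap (23% above and 22.5% below). With 2 arrays a group, an exact two-sided permutation test cannot go below p = 0.333.

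**Figure D1:**
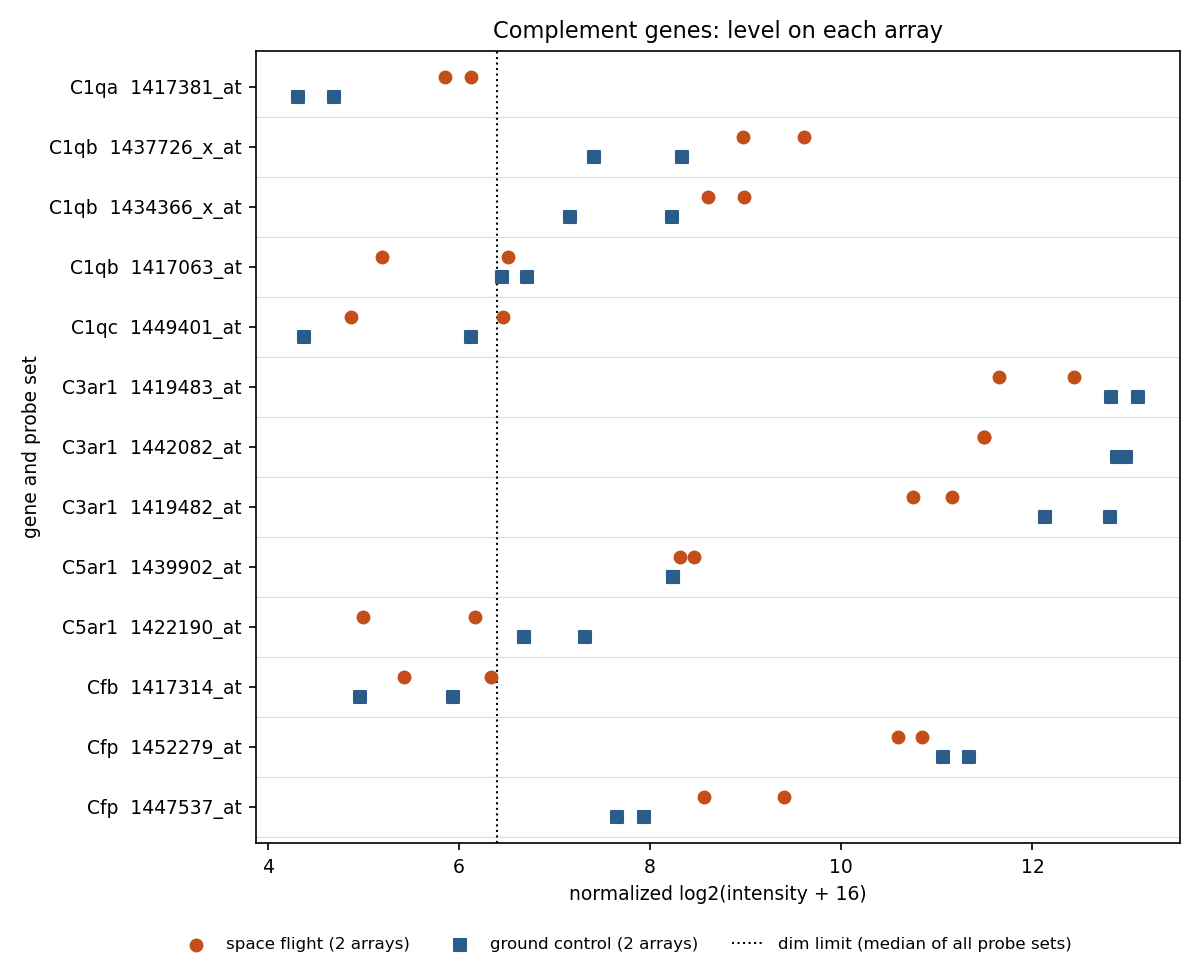
Level of each of the 13 complement probe sets on each array, as normalized log2(intensity + 16); circles are the 2 space flight arrays, squares the 2 ground control arrays, and the dotted line is the limit of 6.40 below which a mean counts as dim. The 3 C3ar1 probe sets lie far to the right with both circles at lower levels than both squares, while C1qa, C1qc, Cfb and 1 probe set each of C1qb and C5ar1 have means left of the line.

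Among the receptors, C3ar1 had intensities of 5503 and 3088 in space flight replicates 1 and 2, against 6913 and 9111 in the ground control replicates, on its brightest probe set, 1419483_at. Both flown cultures were below both ground cultures, with the lower value on the array that stood apart. The flown cultures averaged 12.04 ± 0.55 and the ground cultures 12.96 ± 0.20 (SD, n = 2 each), a difference of −0.92 ± 0.26 (SE; 95% interval −1.51 to −0.33; limma adjusted p = 0.160). Over the alternatives other than leaving out an array, this adjusted p ran from 0.0210 to 0.414.

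A further C3ar1 probe set, 1442082_at, had 2894 and 2753 in space flight, against 7191 and 8220 in ground control. The replicates here lay close together in both groups and the groups far apart. The flown cultures averaged 11.49 ± 0.0015 and the ground cultures 12.93 ± 0.073 (SD, n = 2 each), a difference of −1.44 ± 0.19 (SE; 95% interval −1.87 to −1.01). The last C3ar1 probe set, 1419482_at, had 1725 and 2185 in space flight, against 4444 and 7302 in ground control. Here the flown cultures averaged 10.95 ± 0.29 and the ground cultures 12.47 ± 0.48 (SD, n = 2 each), a difference of −1.52 ± 0.27 (SE). All 3 probe sets thus showed the same order of groups, with a smaller difference on the brightest. In limma fitted on all 45037 probe sets the adjusted p of the 3 was 0.414, 0.131 and 0.256, and 0% of those probe sets passed. In a fit of the 22519 probe sets reaching the dim limit, chosen after seeing the data, 0.0488% passed and the adjusted p was 0.238, 0.0581 and 0.126, with 1442082_at ranking 16th by p. With the mean of its probe sets C3ar1 stood at −1.29 ± 0.20 (SE; limma adjusted p = 0.0711).

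Leaving out an array bore on the C3ar1 probe sets unequally. Without space flight replicate 2 the difference was −0.53 on 1419483_at, −1.44 on 1442082_at and −1.72 on 1419482_at. Without space flight replicate 1 the brightest probe set stood at −1.31 and passed (limma adjusted p = 0.000643), in a fit that called 470 measured genes higher and 610 lower and that takes the lone flown culture to vary like the ground cultures. Over all such fits 1442082_at ran from −1.49 to −1.39 and 1419482_at from −1.86 to −1.18.

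C5ar1, which encodes the receptor for the chemoattractant C5a, had 308 and 334 in space flight, against 294 and 275 in ground control, on its brightest probe set, 1439902_at. The flown values were both higher, by a small margin. The difference was 0.15 ± 0.34 (SE; 95% interval −0.60 to 0.90; limma adjusted p = 0.878), so a change of up to 0.90 upwards or 0.60 downwards fell within the interval. On the dim probe set 1422190_at, C5ar1 had 52.6 and 20.01 in space flight, against 79.3 and 135 in ground control. Here the flown values were both lower, and the difference was −1.42 ± 0.69 (SE; 95% interval −3.00 to 0.16). The C5ar1 probe sets therefore disagreed in sign, and with each array shifted to 1 median the brightest one stood at −0.04 where the median of all genes moved to −0.16.

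Of the C1q chains, C1qb had intensities of 495 and 734 in space flight, against 153 and 294 in ground control, on 1437726_x_at, its brightest probe set. Both flown cultures exceeded both ground cultures. The flown cultures averaged 9.29 ± 0.45 and the ground cultures 7.87 ± 0.65 (SD, n = 2 each), a difference of 1.42 ± 0.40 (SE; 95% interval 0.52 to 2.31; limma adjusted p = 0.158). Over the alternatives other than leaving out an array the adjusted p ran from 0.0248 to 0.503. Without ground control replicate 1 the difference was 0.96, and without space flight replicate 2 it was 1.10. Without space flight replicate 1 it was 1.73, with the array that stood apart as the lone flown culture.

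Another C1qb probe set, 1434366_x_at, had 376 and 475 in space flight, against 123 and 273 in ground control, a difference of 1.09 ± 0.45 (SE), and 0.56 without ground control replicate 1. The third, 1417063_at, had 72.4 and 25.9 in space flight, against 63.5 and 83.4 in ground control, and its groups overlapped. Its difference was −0.73 ± 0.70 (SE; 95% interval −2.32 to 0.87), and −0.07 without space flight replicate 2. The mean of the 3 probe sets put C1qb at 0.59 ± 0.34 (SE; limma adjusted p = 0.503). The maker marks with an x those probe sets whose probes can also bind other transcripts. Both C1qb probe sets with a higher level in space flight are of this class. The third, 1417063_at, has no class letter, and its mean of 6.22 lay below the dim limit. Across all probe sets reaching the dim limit, the 1581 of the x class had a median difference of 0.14, with 31.9% having both space flight values above both ground control values and 12.7% both below. The 16491 with no class letter had a median of −0.06, with 18.5% above and 23.8% below. The part of this class difference in the C1qb values was not tested.

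C1qa, the A chain, had 39.4 and 69.4 in space flight, against 3.17 and 9.43 in ground control. All 4 values lay below the dim limit, at percentile 24.0 of the probe sets by mean level. The flown values were both higher, and the difference was 1.48 ± 0.51 (SE). It depended on the pseudocount, with 2.72 at a pseudocount of 1 and 0.66 at 64. The gene was too dim for the test of measured genes, and with no filter on dim genes limma gave an adjusted p of 0.354. C1qc, the C chain, had 12.9 and 89.6 in space flight, against 3.86 and 51.3 in ground control, so that the spread between replicates exceeded the difference of 0.41 ± 0.77 (SE). The sign of the C1qc difference turned when space flight replicate 2 (−0.38) or ground control replicate 1 (−0.46) was left out. With C1qa and C1qc dim, the 3 neighbouring genes could not be compared above the limit.

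**Figure D2:**
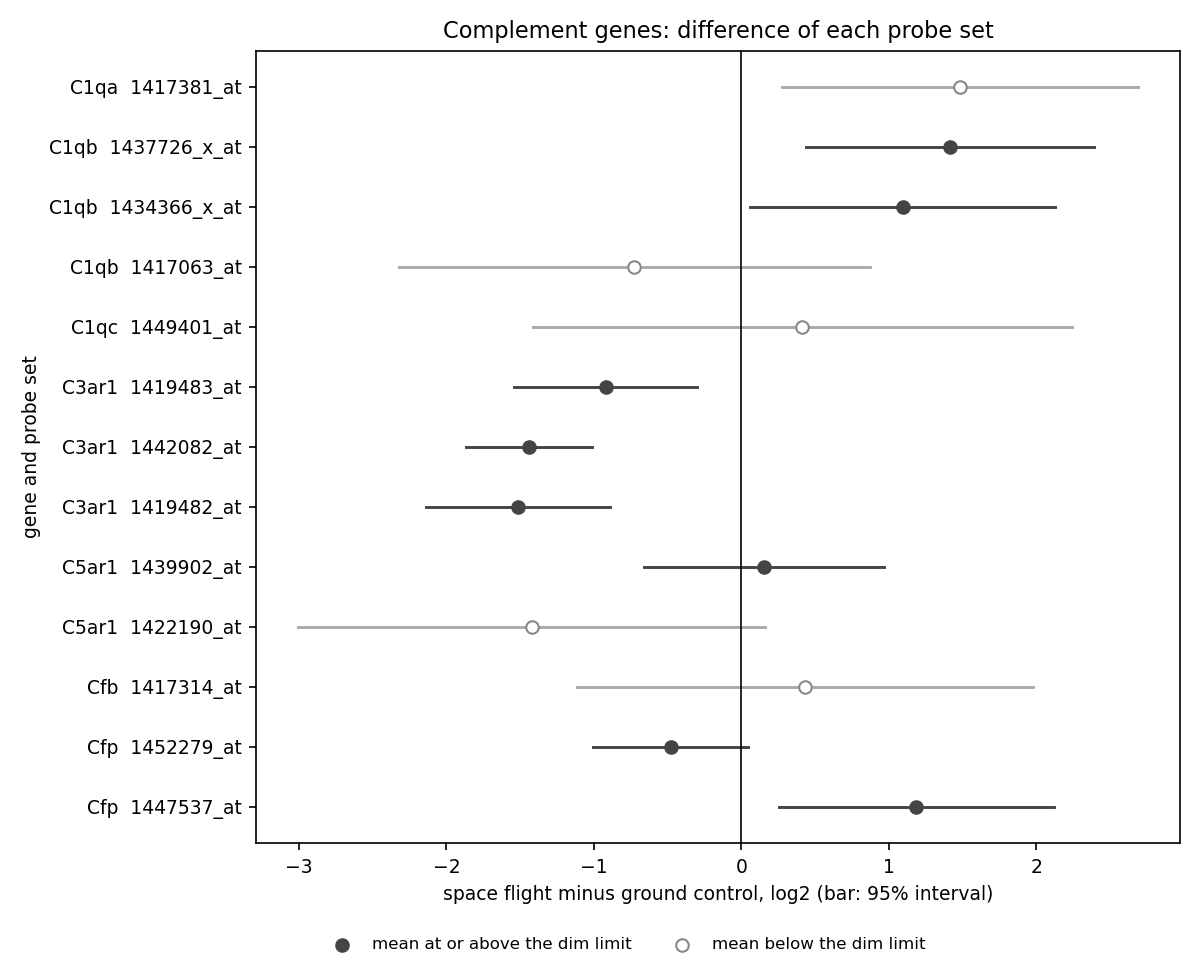
Difference of each complement probe set, space flight minus ground control on the log2 scale, with its 95% interval from limma fitted on all probe sets; filled points have a mean at or above the dim limit and open points a mean below it. The intervals of the 3 C3ar1 probe sets lie below 0, those of C1qa, the 2 x class C1qb probe sets and 1 Cfp probe set lie above 0, and the other 6 span 0.

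In the alternative route, Cfp, which encodes properdin, the protein that stabilises the C3-cleaving enzyme, had 1556 and 1747 in space flight, against 2592 and 2134 in ground control, on 1452279_at. The flown cultures were both lower. The flown cultures averaged 10.72 ± 0.17 and the ground cultures 11.20 ± 0.20 (SD, n = 2 each), a difference of −0.48 ± 0.26 (SE; 95% interval −1.05 to 0.09; limma adjusted p = 0.437). On the dimmer Cfp probe set 1447537_at the order was the opposite, with 673 and 357 in space flight, against 234 and 176 in ground control. That difference was 1.18 ± 0.41 (SE; 95% interval 0.25 to 2.12), and 0.77 without space flight replicate 1. The mean of both put Cfp at 0.35 (limma adjusted p = 0.599), so the sign for this gene depends on the probe set. Cfb, the catalytic part of that enzyme, had 25.5 and 82.3 in space flight, against 38.7 and 14.6 in ground control. These values overlapped below the dim limit, and the Cfb difference was 0.43 ± 0.62 (SE).

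Counted by probe set, 10 of the 13 had groups that did not overlap, 5 with space flight above and 5 with it below, where 38.5% of all probe sets did not overlap (19.1% above and 19.4% below). At an unadjusted p under 0.05 in the fit of all probe sets there were 7 of the 13, where 8.74% of all were, and 0 of the 13 passed after adjustment. Probe sets of 1 gene were read from the same RNA on the same arrays and are not separate observations. Whether they bind the same transcripts was not tested. Of the 4 genes with several probe sets, only C3ar1 had all of them on the same side of 0. With the intensities as deposited, the order of the groups was that given here for each of the 13. Without space flight replicate 2, C1qa stood at 1.35, the C5ar1 probe sets at 0.08 and −0.84, the Cfp probe sets at −0.60 and 1.60, 1434366_x_at of C1qb at 0.91 and Cfb at −0.03.

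**Figure D3:**
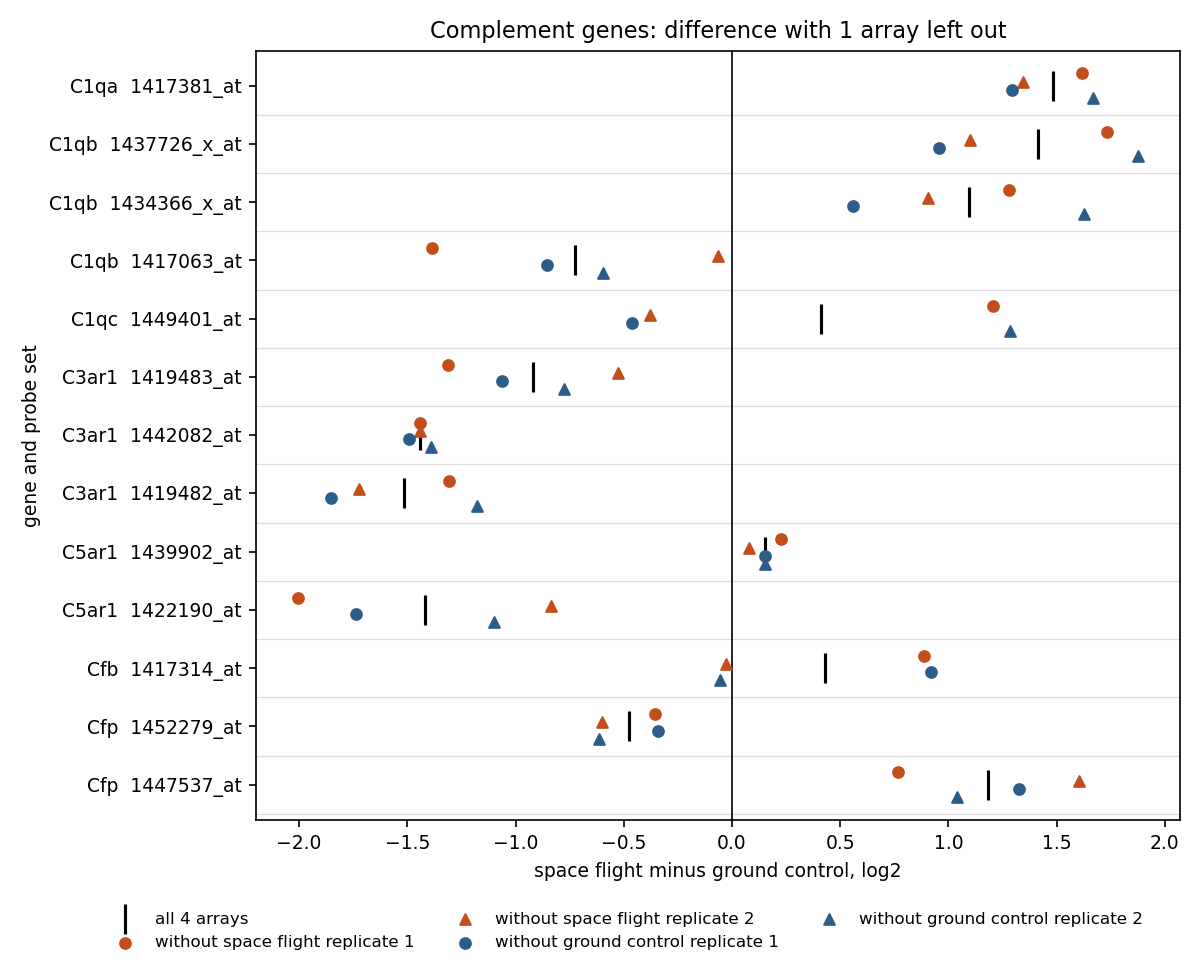
Difference of each complement probe set, space flight minus ground control on the log2 scale, with all arrays (bar) and with each array left out in turn (orange for a space flight array, blue for a ground control array, circle for replicate 1 and triangle for replicate 2). C3ar1 stays below 0 and C1qa and the x class C1qb probe sets above 0 in each fit, while C1qc and Cfb cross 0.

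The rest of the pathway was read through 49 genes in 4 lists, of which 40 had a probe set and 18 were measured. None of the 18 passed limma's test, 8 had a positive and 10 a negative difference, and the median was −0.08, against 0.02 over all measured genes. At an unadjusted p under 0.05 there was 1 higher, Clu, and 2 lower, Itgb2 and Itgam, that is 3 of 18, near the 14.2% of all measured genes (6.88% higher and 7.32% lower). Many pathway genes were dim, among them C6, C8a, C8b, Mbl2 and C4bp, while others such as C9, C8g and Serping1 reached the limit.

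Other receptors of complement and C1q formed the best covered list, with 7 of 10 measured, 6 of them with a negative difference and a median of −0.44. Itgb2, the beta chain of complement receptors 3 and 4, averaged 13.90 ± 0.30 in the flown and 14.49 ± 0.23 in the ground cultures (SD, n = 2 each), a difference of −0.59 ± 0.18 (SE; limma adjusted p = 0.176). Itgam, the alpha chain of complement receptor 3, had a difference of −0.93 ± 0.34 (SE; limma adjusted p = 0.257). Cd93, once described as a C1q receptor, stood at −0.44 ± 0.22 (SE) on its brightest probe set, and at −0.45, −1.16 and −1.57 on the others that reached the dim limit. By the brightest probe set of each of these 3 genes, the flown cultures were both under the ground cultures. On the Cd93 probe set at −0.45 the groups overlapped, as they did on a dim one at −0.46. The 3 genes were named for the lowest moderated statistics of the pathway genes, a choice that favours such an order. Over the 18 measured pathway genes 5 lay below in this way and 2 above, where 22.5% and 23% of measured genes did.

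Regulators had 5 of 15 measured. Clu, whose product clusterin blocks the membrane attack complex, stood at 1.14 ± 0.41 (SE; limma adjusted p = 0.246) on an x class probe set, at 0.87 and 0.31 on 2 others of that class and at −0.84 on a dim one. Serping1, the C1 inhibitor, stood at 0.82 ± 0.58 (SE), with 6.60 and 7.99 in space flight, against 6.82 and 6.12 in ground control, so its groups overlapped. Of the genes that start the classical and lectin routes 4 of 16 were measured, with a median of 0.22. Among them Fcnb, a ficolin of neutrophils and their precursors, stood at 0.43 ± 0.36 (SE). Of the alternative and terminal routes 2 of 8 were measured, C9 at 0.45 and C8g at −1.39, both with overlapping groups. C8g had 5.10 and 8.37 in space flight, against 7.71 and 8.55 in ground control, so its difference rests on space flight replicate 1.

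**Figure D4:**
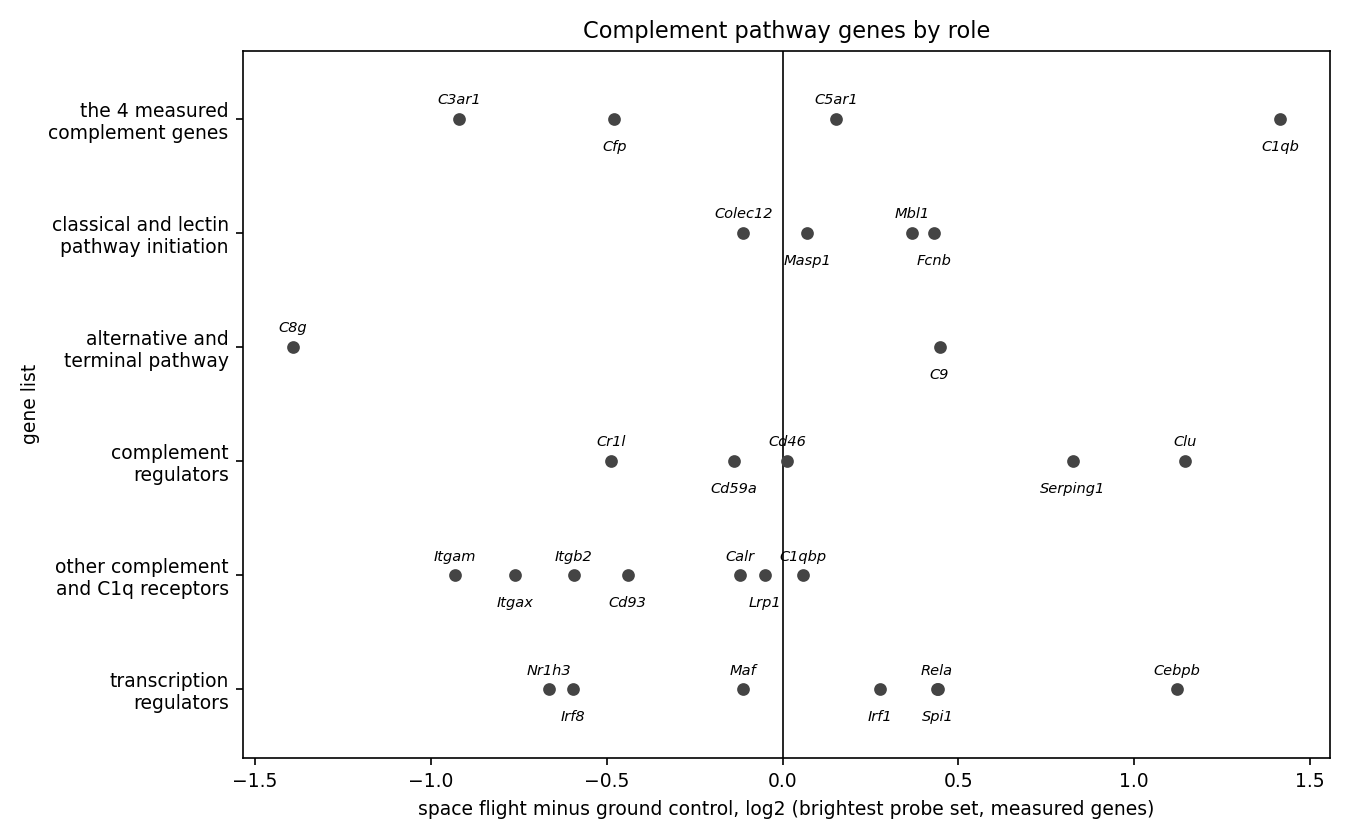
Difference of each measured complement gene by its brightest probe set, space flight minus ground control on the log2 scale, with 1 row for each list; the bottom row holds transcription regulators known for complement or macrophage genes. No gene passed the test; 6 of the 7 other receptors lie left of 0, and the 4 measured genes of the top row run from −0.92 for C3ar1 to 1.42 for C1qb.

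By summed intensity, the groups did not overlap for some lists of cell type markers and overlapped for others. In bulk RNA, fewer cells of a type and less RNA per cell cannot be told apart. Macrophage markers were abundant, with 13 of 15 measured, a median difference of −0.13 and a summed intensity of 183569 and 250826 in space flight, against 201249 and 216301 in ground control. For each list such sums cover all its genes with a probe set, dim ones included. Of the 13 macrophage markers, 9 had a negative and 4 a positive difference, from −1.47 to 1.02. In 7 both flown values were below both ground values and in 1 above, where 22.5% and 23% of measured genes were. At an unadjusted p under 0.05 in limma 4 were lower and 0 higher, where 7.32% and 6.88% of measured genes were. The brightest were Gpnmb at −0.13 ± 0.10 (SE) and the lysozyme gene Lyz2 at −0.06 ± 0.11. Neutrophil markers had 13 of 17 measured and a median difference of 1.51, with a summed intensity of 80403 and 146024 in space flight, against 46806 and 52047 in ground control. Of the 13 neutrophil markers, 12 had a positive and 1 a negative difference. In 11 both flown values were above both ground values and in 1 below, where 23% and 22.5% of measured genes were. At an unadjusted p under 0.05 in limma 11 were higher and 1 lower, where 6.88% and 7.32% of measured genes were. After adjustment 2 rose by limma's test, Camp by 1.97 and Ngp by 1.51 (adjusted p = 0.0347 for both), named after their values were seen, where 0.0449% of measured genes were called higher. Neither passed with arrays shifted to 1 median, no filter, the mean of probe sets, every probe set or no intensity trend, under which no gene was called higher. The brightest, S100a8 and S100a9, stood at 0.79 ± 0.12 and 1.36 ± 0.27. C5ar1 and Cfp are known to be expressed by neutrophils as well as macrophages.

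Osteoclast markers, which M-CSF cultures can also hold, had 5 of 8 measured and a median of −0.31, with a summed intensity of 9700 and 9366 in space flight, against 19186 and 17749 in ground control. The brightest, Ctsk and Atp6v0d2, stood at −1.02 ± 0.20 and −1.15 ± 0.22 (SE). Erythroid markers had 8 of 14 measured and a median of 0.89, with 13003 and 17341 in space flight, against 7517 and 9245 in ground control; Tfrc stood at −0.14 and Slc4a1 at 2.17. Stromal fibroblast markers had 7 of 11 measured and a median of −0.34, with 945 and 1680 in space flight, against 1417 and 1621 in ground control; Pdgfra stood at −1.55 and Dcn at 0.83. Lymphocyte markers had 3 of 11 measured, with Ighm at −0.34 and Cd79a at 0.84. Their summed intensity was 1108 and 2233 in space flight, against 1661 and 1627 in ground control. Mast cell and basophil markers had 3 of 8 measured, with Gata2 at −0.38 and Mcpt8 at 1.34. Their sum was 858 and 1235 in space flight, against 819 and 687 in ground control. Dendritic cell markers had 1 of 9 measured, Itgae at 0.55. The sum of the 8 with a probe set was 333 and 360 in space flight, against 202 and 319 in ground control. No marker of any list was at 0 on an array. The part of these cells in the complement values was not tested.

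The genes most like C1q across the 4 arrays were sought by the root mean square distance between array values, each gene's mean taken off, and the mean profile of the C1q genes. That profile was 0.14 and 0.97 in space flight and −1.06 and −0.04 in ground control, and it includes the dim C1qa and C1qc. The nearest measured genes were 1810064F22Rik (0.036), Zbtb16 (0.069), Gria4 (0.090), Clu (0.091) and Setdb2 (0.098), where the median distance of a measured gene was 0.76. Zbtb16 and Gria4 had ground control means of 6.23 and 6.09, below the dim limit. With 4 arrays 82 genes lay within 0.25, so the order among them is a description of these arrays alone.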

How the data were processed

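Transcript levels were measured in 2 space flight and 2 ground control cultures, as given by the sample titles. The table deposited by the authors holds linear intensities, with 1 value for every probe set on an array. Per the submitters' processing notes the software was GCOS; its version, the summarising algorithm and the genome build were not given in the sources used here. On every array the mean without the outer 2% at both ends was 500.004. The number of arrays limits the precision.

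From the intensities, log2(value + 16) was quantile normalized in R 4.3.3 without the 64 control probe sets. Symbols come from the platform annotation, and probe sets with several symbols were left unnamed. Each gene was represented by its brightest probe set, and the 11141 measured genes were fitted in limma 3.58.1 (lmFit, then eBayes with trend; two-sided tests), and p-values were Benjamini-Hochberg adjusted over all of them. SEs and adjusted p-values of measured genes come from this fit, with 2 residual and 10.4 moderated degrees of freedom. SEs of the dim genes C1qa, C1qc and Cfb come from the same model on all 18193 genes, and those of other probe sets from the same model on all 45037 probe sets. The procedure was tested on simulated data. Over 20 simulations it recovered 33.8% of changes of 1 and 85.2% of changes of 2 on the log2 scale. Of its calls there, 6.28% were false. The members, gene lists and tests were chosen with earlier results of these data known. Named genes were all members, the 3 highest and 3 lowest pathway genes by moderated statistic, the 2 brightest markers of each cell type, the Gapdh and Actb controls and the 5 genes nearest the C1q profile; a like search for C3 with Cfb could not be made without C3. Of pathway and regulator genes, C6, C8a, C8b, Mbl2, C4bp, C8g, C9 and those of the closing section were chosen after their values were seen. Alternatives covered array scaling, pseudocount, the filter, the choice of probe set, the variance trend, a replicate block and leaving out each array.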

Additional observations from a re-analysis of the deposited data

How the results depend on the processing

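The count of complement genes past the threshold was 0 higher and 0 lower among the members under the planned scalings, pseudocounts, filter, probe set rules and variance model. With replicate numbers as a block (replicate block), 1 member was higher, C1qb (limma adjusted p = 0.0248), and 1 lower, C3ar1 (adjusted p = 0.0210), 1 pathway gene was lower, Itgb2 (adjusted p = 0.0340), and 220 measured genes were higher and 213 lower. The numbers are not known to pair cultures, and the correlation of deviations of same-numbered arrays was 0.057. Of all measured genes, 5 were higher and 2 lower; these counts became 12 and 4 without further normalization, 16 and 5 with cyclic loess, 6 lower with a pseudocount of 64, 3 and 1 in the fit of probe sets reaching the dim limit, and 0 and 0 with arrays shifted to 1 median, no filter, the mean of probe sets, every probe set or no intensity trend. With each array left out, the counts ran from 6 to 470 higher and from 1 to 610 lower over measured genes, from 0 to 1 in each direction among members, and from 0 to 1 higher and 0 to 2 lower among pathway genes (Clu and Itgb2 without space flight replicate 1, Itgax and C8g without space flight replicate 2). Such fits take the spread from the group that keeps both arrays. The brightest C5ar1 probe set changed sign with arrays shifted to 1 median (−0.039), and C5ar1 with the mean of its probe sets (−0.63), as did Cfp (0.35). The cause was not tested. What limits the dim members C1qa, C1qc and Cfb is signal: their means lay below the median of all probe sets.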

Other observations

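Of 10 transcription regulators known for complement or macrophage genes, 7 were measured, with a median difference of 0.28, against 0.02 over all measured genes. None passed limma's test over all genes, and 1 did at an unadjusted p under 0.05, Cebpb, which encodes a C/EBP factor of myeloid cells; 14.2% of all measured genes did. Cebpb had 13.27 and 12.88 in space flight, against 11.90 and 12.00 in ground control, a difference of 1.12 ± 0.21 (SE; limma adjusted p = 0.0859). Spi1, the gene of PU.1, had 11.04 and 11.16 in space flight, against 10.62 and 10.69 in ground control, a difference of 0.44 ± 0.25 (SE; limma adjusted p = 0.457). Irf8, a factor of the monocyte lineage, had 10.20 and 10.75 in space flight, against 10.91 and 11.23 in ground control, a difference of −0.60 ± 0.29 (SE; limma adjusted p = 0.380). The groups did not overlap for 6 of the 7, with space flight above for Cebpb, Spi1, Rela and Irf1 and below for Irf8 and Nr1h3, where 45.5% of all measured genes did not overlap. Maf, which encodes a factor that binds Maf recognition elements, stood at −0.11 ± 0.30 (SE), with overlapping groups. Maf had 6 probe sets and Cebpb and Irf8 had 2 each, and only the brightest of each gene is given here.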
